A study of Homo sapiens with 6 samples.

Results

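The insulin-like growth factor (IGF) binding proteins, receptors and receptor substrates described here are 10 genes given by symbol, IGFBP2, IGFBP3, IGFBP4, IGFBP6, IGFBP7, IGF1R, IGF2R, INSR, IRS1 and IRS2. Their Entrez identifiers were looked up among the 12703 genes of the deposited counts, and 8 of the 10 were found. IGFBP2 and IGFBP7 were not in the table, whose genes all reached at least 1.01 CPM (counts scaled to library size) in their 3 highest libraries.

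IGF-binding proteins are secreted proteins that hold IGF1 and IGF2 outside the cell, limiting or prolonging their access to receptors, and several also act on cells without IGF. IGF1R and the insulin receptor INSR are receptor tyrosine kinases that signal to PI3K and AKT through the docking proteins IRS1 and IRS2, whereas IGF2R takes up IGF2 for degradation and sorts lysosomal enzymes that carry mannose 6-phosphate. In the prostate, IGF-binding proteins are secreted by epithelial and stromal cells, and IGFBP3 is best known there for restraining growth and promoting cell death.

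The question was how gene expression differs when the O-glycan branching enzyme GCNT1 is overexpressed in PC3, an androgen-independent cell line established from a prostate cancer metastasis in bone. The GCNT1 group (GCNT1 OE) was 3 PC3 lines made by stable transduction with lentiviral GCNT1, and the control group was 3 PC3 lines carrying the Lenti-ORF negative-control virus. Whether each line was a clone or a pool, and where the virus integrated, is not given in the sources used here. Nor is it given whether the lines of a group came from separate transductions. The p-values below may therefore not cover the spread between independent transductions. Each line gave 1 stranded mRNA library, and the total counts were 12755888, 12717300 and 12125672 in control replicates 1 to 3 and 11392213, 13411484 and 13825704 in GCNT1 OE replicates 1 to 3.

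GCNT1 itself had only 9, 13 and 8 counts in controls against 13, 16 and 35 with GCNT1 OE. The groups did not overlap on the scale of trimmed mean of M values (TMM) normalized CPM, and GCNT1 OE replicate 3 stood well above the others at 2.48 CPM. The mean level was 0.812 ± 0.202 CPM in controls and 1.59 ± 0.772 CPM with GCNT1 OE (SD, n = 3 each), and the log2 fold change was 0.98 ± 0.37 (SE, edgeR quasi-likelihood test, Benjamini-Hochberg adjusted p = 0.0362). Without GCNT1 OE replicate 3 the log2 fold change was 0.49 (edgeR, Benjamini-Hochberg adjusted p = 0.269). The Benjamini-Hochberg adjusted p was also above 0.05 without control replicate 1 (edgeR, 0.0920), without control replicate 3 (edgeR, 0.0944) and under DESeq2 (0.0821).

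The labelled cell type was set against marker genes. Keratins of simple epithelia were abundant, with KRT8 at 221.6 ± 7.77 CPM and KRT18 at 252.5 ± 7.94 CPM in controls (SD, n = 3 each), while EPCAM (5.54 CPM) and CDH1 (3.59 CPM), which encode epithelial adhesion proteins, were low. All 5 epithelial markers were in the table and summed to 822.3, 866.3 and 869.2 CPM in the controls and 710.4, 625.8 and 647.7 CPM with GCNT1 OE. KRT19 had the highest mean in both groups, although in GCNT1 OE replicate 2 KRT18 (216.0 CPM) was just above KRT19 (215.0 CPM). KRT19 (log2 fold change -0.68) and CDH1 (-1.72) were downregulated. Of the androgen-responsive luminal markers, KLK3 and KLK2 were not in the table, and TMPRSS2 was low in controls (4.20 CPM) and lower with GCNT1 OE (log2 fold change -1.26).

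Defining markers of other cell types were mostly missing from the table. Of 6 fibroblast and smooth muscle markers only COL1A1 and ACTA2 were present, and their sum was 15.7, 18.2 and 16.8 CPM in controls and 12.7, 11.1 and 11.8 CPM with GCNT1 OE, COL1A1 being the most abundant. COL1A1 was downregulated (log2 fold change -0.77), whereas ACTA2 was at 2.34 CPM in controls and 3.35 CPM with GCNT1 OE (log2 fold change 0.50, edgeR, Benjamini-Hochberg adjusted p = 0.0520). COL1A2, DCN, LUM and PDGFRB were not in the table. Of 3 endothelial markers PECAM1 was present and upregulated, at 1.77 CPM in controls and 4.43 CPM with GCNT1 OE (log2 fold change 1.31, edgeR, Benjamini-Hochberg adjusted p = 8.36e-05), and VWF and CDH5 were not in the table. Of 4 immune markers CD68, a lysosomal gene also expressed outside the immune system, was present at 89.8 and 84.4 CPM in the respective groups, without PTPRC, LST1 or CD3E.

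Among the 8 measured genes, IGFBP3 and IRS2 were downregulated in GCNT1 OE cells and none was upregulated. A gene was called up- or downregulated at an edgeR Benjamini-Hochberg adjusted p under 0.05 and an absolute log2 fold change of at least 0.58. The calls amounted to 2 of 8 genes against 19.3% of all 12703 genes in either direction, with 0 of 8 higher against 8.28% and 2 of 8 lower against 11.1%. By adjusted p alone, 5 of 8 genes passed (62.5%) against 57.6% of all genes, 1 higher (background 28.3%) and 4 lower (background 29.3%). The libraries of the groups did not overlap in 5 of 8 genes, against 62.5% of all genes. Without regard to direction these shares lay near those of all genes. By direction more of the 8 genes were lower and fewer higher than among all genes, a difference of few genes that was not tested. The count of 0 higher genes was also that of limma-voom and DESeq2, and at an unadjusted p under 0.05 1 gene, IGF1R, was higher with edgeR. The share of all genes at that unadjusted p is not given here. The median log2 fold change was -0.10 over the 8 genes and 0.00 over all genes, and the median absolute log2 fold change was 0.23 and 0.26. In bulk RNA, fewer expressing cells and less RNA per cell cannot be told apart, which holds for every difference given here.

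**Figure D1:**
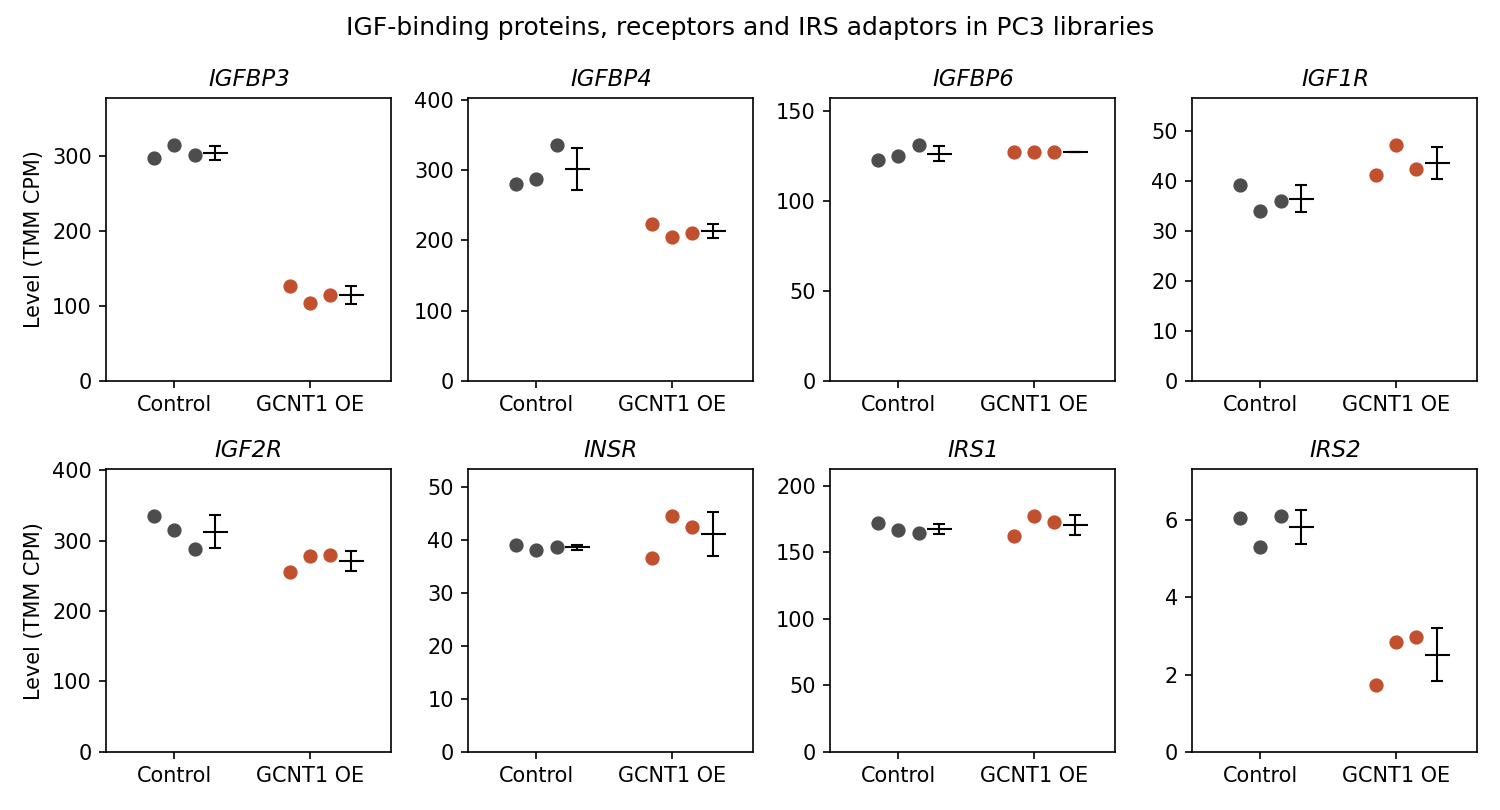
Level of each of the 8 measured genes in TMM-normalized CPM (vertical axis, starting at 0) in the 3 control (grey) and 3 GCNT1 OE (orange) libraries, with the group mean and SD drawn beside the points. IGFBP3, IGFBP4, IGF2R and IRS2 lay lower in all 3 GCNT1 OE libraries and IGF1R lay higher, whereas the points of IGFBP6, INSR and IRS1 overlapped between groups.

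IGFBP3 encodes the main IGF carrier of serum and was the binding protein with the clearest fall. It had 3740, 3923 and 3567 counts in control replicates 1 to 3 against 1462, 1422 and 1610 in GCNT1 OE replicates 1 to 3. Every control library was far above every GCNT1 OE library, and the spread within each group was small against the gap. The level was 304.7 ± 9.30 CPM in controls and 114.7 ± 11.4 CPM with GCNT1 OE (SD, n = 3 each), 2.66-fold lower. The log2 fold change was -1.41 ± 0.06 (SE, edgeR quasi-likelihood test, Benjamini-Hochberg adjusted p = 1.24e-09), and it ran from -1.49 to -1.34 over the fits that each left out 1 library. The exact permutation test over libraries gave p = 0.1 (two-sided), the smallest value that 3 against 3 allows. IGFBP3 (Entrez 3486) lies on the minus strand at chr7:45912245-45921272 of hg38, with no overlapping annotated gene.

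IGFBP4, which encodes a binding protein that mostly inhibits IGF action, was also lower in GCNT1 OE cells but below the fold change threshold. It had 3534, 3589 and 3972 counts in controls against 2591, 2806 and 2980 with GCNT1 OE. The groups did not overlap, and control replicate 3 was the highest library. The level was 301.7 ± 29.9 CPM in controls and 213.1 ± 9.94 CPM with GCNT1 OE (SD, n = 3 each), and the log2 fold change was -0.50 ± 0.07 (SE, edgeR quasi-likelihood test, Benjamini-Hochberg adjusted p = 2.54e-05). IGFBP6, which encodes a binding protein that prefers IGF2, had 1546, 1554 and 1549 counts in controls against 1471, 1750 and 1793 with GCNT1 OE. Scaled to depth these counts were almost level, 126.2 ± 4.27 and 127.2 ± 0.176 CPM (SD, n = 3 each), and the groups overlapped. The log2 fold change of IGFBP6 was 0.01 (standard error 0.05, edgeR, Benjamini-Hochberg adjusted p = 0.861). IGFBP4 (Entrez 3487) lies at chr17:40443450-40457725 and IGFBP6 (Entrez 3489) at chr12:53097667-53102340, both on the plus strand and without overlapping annotated genes.

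A list of further binding proteins and carriers held IGFBP1, IGFBP5, IGFBPL1 and IGFALS, of which only IGFBP5 was in the table. IGFBP5 encodes a binding protein that attaches to extracellular matrix. It had 1483, 1575 and 1379 counts in controls against 3892, 4764 and 4630 with GCNT1 OE. All 3 GCNT1 OE libraries were above all 3 controls, so IGFBP5 was upregulated while IGFBP3 was downregulated in the same libraries. The level was 120.3 ± 5.37 CPM in controls and 337.1 ± 9.35 CPM with GCNT1 OE (SD, n = 3 each), 2.80-fold higher (log2 fold change 1.49, SE 0.05, edgeR quasi-likelihood test, Benjamini-Hochberg adjusted p = 6.38e-11). IGFBP5 (Entrez 3488) lies at chr2:216672105-216695549 on the minus strand, and DIRC3-AS1 overlaps it on the opposite strand.

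Levels of different genes were compared as CPM per kilobase of annotated exon. In controls the order was IGFBP4 (136.8 ± 13.6), IGFBP6 (93.8 ± 3.17), IGFBP3 (66.7 ± 2.04), IRS1 (16.7 ± 0.382), IGF2R (13.8 ± 1.02), INSR (3.57 ± 0.0481), IGF1R (2.62 ± 0.188) and IRS2 (0.712 ± 0.0542; SD, n = 3 each). No neighbours in this order overlapped between libraries. With GCNT1 OE, IGFBP4 (96.7 ± 4.51) and IGFBP6 (94.5 ± 0.131) did not differ beyond their spread (SD, n = 3 each). INSR (3.80 ± 0.379) was above IGF1R (3.13 ± 0.226) in each GCNT1 OE library, although the lowest INSR level of the group, 3.38, lay just under the highest IGF1R level, 3.39 (SD, n = 3 each). The levels of IGFBP3 (25.1 ± 2.50), IRS1 (17.0 ± 0.766), IGF2R (11.98 ± 0.607) and IRS2 (0.308 ± 0.0839) followed in the same order as in controls on this scale (SD, n = 3 each). IGFBP5 stood at 18.6 ± 0.831 in controls, below IGFBP3, and at 52.1 ± 1.45 with GCNT1 OE, above it (SD, n = 3 each). The order depended on the length used. Per kilobase of the longest transcript, an alternative added after the data were seen, IGFBP3 (115.8 ± 3.53) was above IGFBP6 (107.2 ± 3.63) in controls, and below it with GCNT1 OE (43.6 ± 4.34 and 108.1 ± 0.150; SD, n = 3 each). On that scale IGF2R was above IRS1 in both groups (21.97 and 17.2 in controls, 19.03 and 17.4 with GCNT1 OE), and IGFBP6 was above IGFBP4 (96.7) with GCNT1 OE. IGFBP5 was below IGFBP3 in controls (19.3) and above it with GCNT1 OE (54.0) on either scale.

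The make-up of the measured binding protein transcripts was taken as each gene's percentage of the summed counts per kilobase of IGFBP3, IGFBP4, IGFBP5 and IGFBP6. IGFBP3 made up 21.6, 22.1 and 19.8% in control replicates 1 to 3 and 10.03, 8.60 and 9.39% in GCNT1 OE replicates 1 to 3. IGFBP5 made up 6.04, 6.27 and 5.41% in controls and 18.9, 20.4 and 19.1% with GCNT1 OE. The control libraries thus held more IGFBP3 than IGFBP5 and the GCNT1 OE libraries more IGFBP5 than IGFBP3, in every library. On means, IGFBP4 went from 43.3 ± 2.09 to 36.0 ± 0.846% and IGFBP6 from 29.7 ± 0.535 to 35.2 ± 0.859% (SD, n = 3 each). The size of these changes depended on the length used. In percentage points the change was -11.8 for IGFBP3, -7.24 for IGFBP4, 13.5 for IGFBP5 and 5.52 for IGFBP6, but -21.3 for IGFBP3, 28.4 for IGFBP5 and 1.26 for IGFBP6 without division by length, and -4.07 for IGFBP4 with the longest transcript. The directions were the same. Shares add up to the whole, so the larger share of IGFBP6 stood beside a level that did not pass the test. The ratio of IGFBP5 to IGFBP3 per kilobase was 0.280, 0.284 and 0.273 in controls and 1.88, 2.37 and 2.03 with GCNT1 OE. Each of the 4 shares gave an exact permutation p = 0.1, the smallest that 3 libraries against 3 allow. The ratio gave the same exact permutation p, but it was not among the planned quantities. It pairs a gene that rose with a gene that fell, so its separation followed from their levels and is no further test. The 4 genes summed to 852.9 ± 33.4 CPM in controls and 792.1 ± 18.7 CPM with GCNT1 OE (SD, n = 3 each, exact permutation p = 0.1). Per kilobase they summed to 315.9 ± 16.3 and 268.4 ± 6.38 (SD, n = 3 each, exact permutation p = 0.1).

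**Figure D2:**
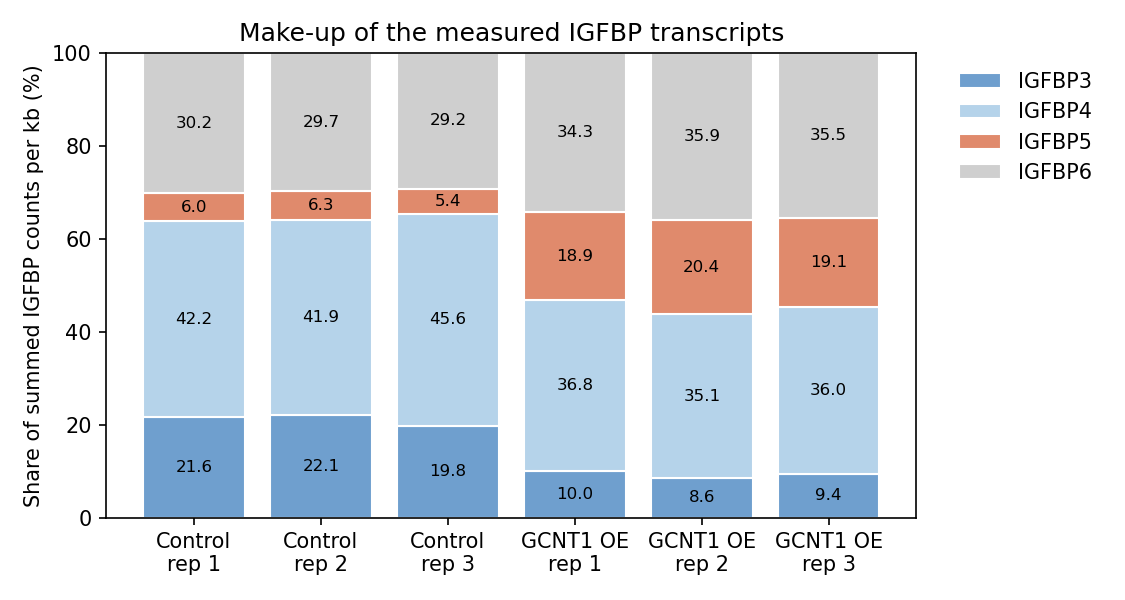
Stacked bars show, for each of the 6 libraries, the percentage of summed counts per kilobase of exon (vertical axis) that came from IGFBP3, IGFBP4, IGFBP5 and IGFBP6. IGFBP3 took 19.8 to 22.1% in the controls and 8.60 to 10.03% with GCNT1 OE, while IGFBP5 took 5.41 to 6.27% and 18.9 to 20.4%.

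None of the 3 receptors reached the fold change threshold. IGF1R, the receptor tyrosine kinase for IGF1 and IGF2, had 495, 425 and 427 counts in controls against 478, 649 and 599 with GCNT1 OE. After scaling, the GCNT1 OE libraries (41.3, 47.3 and 42.5 CPM) lay above the controls (39.3, 34.1 and 36.1 CPM), with a narrow gap. The log2 fold change was 0.26 ± 0.08 (SE, edgeR quasi-likelihood test, Benjamini-Hochberg adjusted p = 0.0103), and without control replicate 2 it was 0.21 and no longer passed (edgeR, Benjamini-Hochberg adjusted p = 0.0620). INSR, the insulin receptor, which forms hybrids with IGF1R, had 492, 474 and 458 counts in controls against 423, 611 and 598 with GCNT1 OE. The groups overlapped because GCNT1 OE replicate 1 was the lowest INSR library and replicates 2 and 3 the highest. Its log2 fold change was 0.09 (standard error 0.08, edgeR, Benjamini-Hochberg adjusted p = 0.306). Without GCNT1 OE replicate 1 it was 0.17 and passed the adjusted p alone (edgeR, Benjamini-Hochberg adjusted p = 0.0421). The log2 ratio of IGF1R to INSR per kilobase was -0.36, -0.52 and -0.47 in controls and -0.19, -0.28 and -0.36 with GCNT1 OE (exact permutation p = 0.2), so the ratios of the groups overlapped.

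IGF2R, the receptor that clears IGF2, had 4207, 3925 and 3408 counts in controls against 2951, 3813 and 3948 with GCNT1 OE. Scaled levels were 334.3, 315.2 and 288.3 CPM in controls and 255.0, 277.6 and 279.8 CPM with GCNT1 OE. The groups were separated only by the small gap between control replicate 3 and GCNT1 OE replicate 3. The log2 fold change of IGF2R was -0.21 ± 0.06 (SE, edgeR quasi-likelihood test, Benjamini-Hochberg adjusted p = 0.00867). Without control replicate 1 it was -0.15 and the test was not passed (edgeR, Benjamini-Hochberg adjusted p = 0.0553). IGF1R (Entrez 3480) lies at chr15:98648539-98964530, where SYNM-AS1 and other antisense genes and an unnamed gene of the same strand overlap it, INSR (Entrez 3643) at chr19:7112265-7294414, and IGF2R (Entrez 3482) at chr6:159969082-160111504, overlapped by the antisense gene AIRN. The kit marks strand, but whether the counting used it is not given in the sources used here, so antisense reads may be included, and reads of the same-strand gene in IGF1R could not be separated by strand.

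IRS1 and IRS2, the docking proteins that link both receptors to PI3K, differed from each other. IRS2 had 76, 66 and 72 counts in controls against 20, 39 and 42 with GCNT1 OE. All GCNT1 OE libraries were below all controls, with GCNT1 OE replicate 1 the lowest. The level was 5.81 ± 0.442 CPM in controls and 2.52 ± 0.685 CPM with GCNT1 OE (SD, n = 3 each), 2.27-fold lower, with a log2 fold change of -1.18 ± 0.19 (SE, edgeR quasi-likelihood test, Benjamini-Hochberg adjusted p = 1.31e-04). It ran from -1.32 to -0.99 over the fits that each left out 1 library. IRS2 had the largest standard error and the lowest counts of the 8 genes. IRS1 had 2161, 2076 and 1941 counts in controls against 1875, 2431 and 2433 with GCNT1 OE. Its scaled levels overlapped, with 167.5 ± 3.83 and 170.5 ± 7.67 CPM (SD, n = 3 each), and the log2 fold change was 0.03 (standard error 0.05, edgeR, Benjamini-Hochberg adjusted p = 0.684). IRS1 (Entrez 3667) lies at chr2:226731312-226799820 and IRS2 (Entrez 8660) at chr13:109752695-109786583, both on the minus strand, and an unnamed antisense gene overlaps IRS2.

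Libraries also differed in the relative level of long genes. The median log2 deviation from the mean of the 6 libraries of the genes with the longest exons minus that of the genes with the shortest exons (upper and lower quartile of exon length) was -0.14 in GCNT1 OE replicate 1 and between -0.06 and 0.08 in the other libraries. IRS2, INSR, IGF2R and IRS1 were at their lowest in GCNT1 OE replicate 1, and their exons sum to 8156, 10831, 22613 and 10019 bp. IGF1R, with 13941 bp of exon, was not. Whether this reflects the libraries or the lines was not tested. With offsets that remove the length trend, an alternative added after the data were seen, IGFBP3 and IRS2 were again the only members called. The log2 fold change of IGF2R moved from -0.21 to -0.12 with these offsets (edgeR, Benjamini-Hochberg adjusted p = 0.0235), while that of IRS2 was -1.18 in both fits and that of IGF1R 0.26 and 0.27.

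RefSeq promoter sequences of GRCh38.p14 matched 9 of the 10 genes by symbol, and IGFBP7 had no entry. The 250 bases before the start are shown for the called genes IGFBP3 and IRS2, and for IGFBP5, which moved the other way, 5′ to 3′ on the strand of the gene. Capitals mark the GC box letters GGGCGG on either strand. The windows are chr7:45921273-45921522 for IGFBP3, chr13:109786584-109786833 for IRS2 and chr2:216695550-216695799 for IGFBP5, all on the minus strand.
IGFBP3: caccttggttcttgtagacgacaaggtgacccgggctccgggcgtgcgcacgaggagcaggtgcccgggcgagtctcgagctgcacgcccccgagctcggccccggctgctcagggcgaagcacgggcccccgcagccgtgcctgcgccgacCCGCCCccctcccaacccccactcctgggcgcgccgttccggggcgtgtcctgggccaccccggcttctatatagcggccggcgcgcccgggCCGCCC
IRS2: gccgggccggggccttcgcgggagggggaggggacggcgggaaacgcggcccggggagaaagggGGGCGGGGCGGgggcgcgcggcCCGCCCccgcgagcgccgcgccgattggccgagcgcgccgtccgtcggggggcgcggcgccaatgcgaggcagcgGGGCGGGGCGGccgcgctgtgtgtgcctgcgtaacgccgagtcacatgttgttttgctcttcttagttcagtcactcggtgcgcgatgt
IGFBP5: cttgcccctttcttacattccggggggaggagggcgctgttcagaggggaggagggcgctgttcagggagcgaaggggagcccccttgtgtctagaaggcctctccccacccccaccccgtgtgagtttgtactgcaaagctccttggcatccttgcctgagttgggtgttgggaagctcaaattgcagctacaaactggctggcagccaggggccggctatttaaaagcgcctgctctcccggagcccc

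Each window was searched on both strands for GGGCGG, for the TATA box letters TATAAA and for the FOXO core GTAAACA. The IGFBP3 window held 2 GC boxes, at positions -98 and -6 counted from the start, and the IRS2 window held 5, at -186, -181, -164, -89 and -84, of which -186 and -181 overlap each other, as do -89 and -84. The IGFBP5 window held none of the 3 motifs. GC content was 76.0% for IGFBP3, 76.4% for IRS2 and 61.2% for IGFBP5, against a median of 58.0% over all windows. GC boxes are common, being in 42.6% of 35116 RefSeq windows and in 63.2% of 14985 windows of tested genes. At least 1 GC box was in a window of every matched gene of the 10, so the motif did not separate the called genes from IGFBP6, INSR or IRS1. TATAAA was found for IGFBP4 at -29 (10.7% of all windows, 6.13% of those of tested genes), and GTAAACA for IGFBP6 at -186 (2.98% and 2.21%). Only these exact letters were searched, so variants of a motif, also of the TATA box, were not counted. A match is a run of letters and was not tested for binding.

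The chromosomal neighbourhood differed between the genes. The 50 tested genes nearest to IGFBP3 had a median log2 fold change of -0.21, against -1.41 for IGFBP3, and those nearest to IRS2 had 0.14, against -1.18. The middle part of the neighbours, from the lower to the upper quartile, ran from -0.44 to 0.09 around IGFBP3 and from -0.03 to 0.34 around IRS2. Of the 50 neighbours, 2 were lower than IGFBP3 and 0 were lower than IRS2. For IGF1R the local median was 0.33, above the gene's own 0.26, and for IGF2R it was -0.43, further down than the gene's own -0.21. IGF1R and IGF2R thus lay within the quartiles of their neighbours (0.01 to 0.52 and -0.61 to -0.17), and relative to the local median their signs turned, to -0.067 and 0.23. The local median was 0.03 for IGFBP4, 0.27 for IGFBP6, -0.03 for INSR, -0.19 for IRS1 and -0.03 for IGFBP5. The part of the neighbourhood in these values was not tested.

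**Figure D3:**
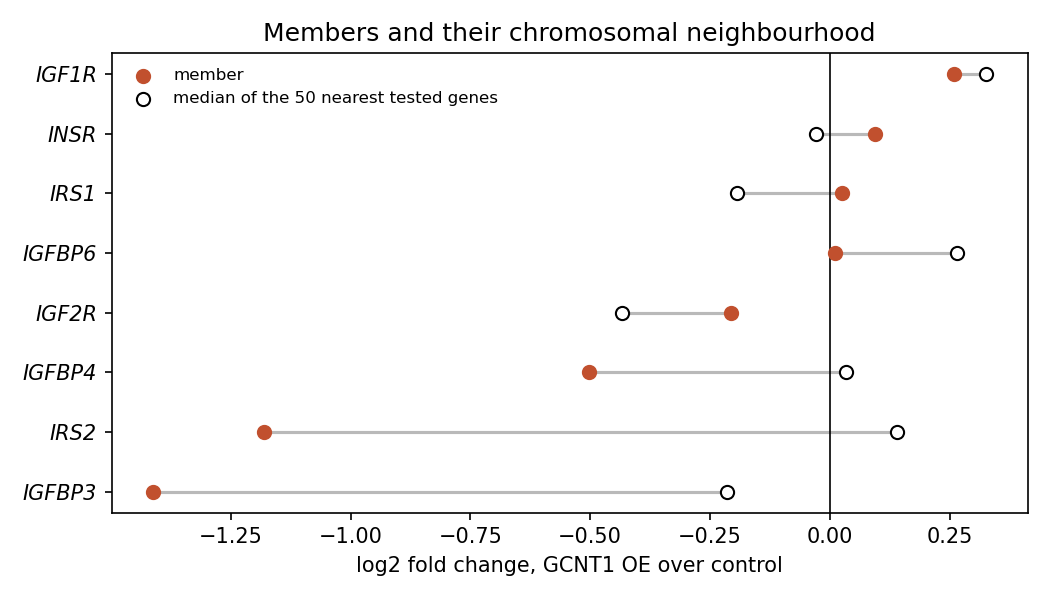
Log2 fold change of GCNT1 OE over control (horizontal axis) for each of the 8 genes (filled points) and the median of its 50 nearest tested genes (open points). IGFBP3 (-1.41 against -0.21) and IRS2 (-1.18 against 0.14) lay below the median of their neighbours, and IGF1R (0.26 against 0.33) lay close to it.

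Near IGFBP3, ADCY1, which encodes an adenylyl cyclase, had 192, 182 and 155 counts in controls against 0, 1 and 1 with GCNT1 OE. TNS3, on the other side of IGFBP3, had a log2 fold change of -0.37 (edgeR, Benjamini-Hochberg adjusted p = 1.74e-04). COL4A1 and COL4A2, the paired collagen genes beside IRS2, had -0.49 and -0.42, while LIG4 (0.70) and ABHD13 (0.35) on the other side of IRS2 were higher. Beside IGFBP5, the long non-coding gene DIRC3 had 3, 4 and 5 counts in controls against 54, 71 and 62 with GCNT1 OE (log2 fold change 3.83), and TNS1 had -0.58. The other neighbours examined, SEPTIN7P2 (-0.17) and HUS1 (-0.17) near IGFBP3 and SMARCAL1 (0.20) and RPL37A (0.18) near IGFBP5, had small log2 fold changes, and those of SEPTIN7P2 and HUS1 did not pass the adjusted p. The 4 nearest tested genes of each locus, 2 on either side, are given.

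For each called member the genes with the most similar levels over the 6 libraries were sought. Such a search always returns some genes, its distance includes the group difference, and 19.3% of all genes were called. A small distance therefore does not show shared regulation, which was not tested. By Euclidean distance of log2 TMM CPM centred on the control mean, COL6A2 (distance 0.0740), GNAZ (0.0872) and RIPK4 (0.126) were nearest to IGFBP3 among 12703 genes. COL6A2, a collagen VI chain, fell from 412.5 to 157.1 CPM (log2 fold change -1.39), GNAZ, a G protein subunit, from 37.1 to 13.7 CPM (-1.44) and RIPK4, a kinase, from 24.99 to 9.43 CPM (-1.41). Among the nearest to IRS2 were PDE4A (0.256) and FAM169A (0.328), with log2 fold changes of -1.29 and -1.18. These distances for IRS2 were larger than those for IGFBP3, and its counts were lower.

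Outside the 8 genes, 7 pathway lists with 83 genes were examined, 67 of which were in the table. Among the 67 genes 6 were upregulated and 5 downregulated (16.4% called, against 19.3% of all genes), and 24 were higher and 17 lower by adjusted p alone (61.2% against 57.6%). The lists as a whole were therefore near the background, and the description rests on single genes.

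Of the ligand list, the transcripts of IGF1, IGF2 and INS were not in the table. The family that binds IGF2 mRNA and other transcripts was present, and IGF2BP1 and IGF2BP3 were upregulated. That was 2 of 3 genes, against 8.28% of all genes called higher. All 3 passed the adjusted p, against 57.6% of all genes, and so short a list was not tested as a set. IGF2BP1 had 31, 36 and 38 counts in controls against 91, 110 and 93 with GCNT1 OE, a low level that was higher in every GCNT1 OE library. Its log2 fold change was 1.39 ± 0.16 (SE, edgeR quasi-likelihood test, Benjamini-Hochberg adjusted p = 7.32e-06). IGF2BP3 had 451, 441 and 392 counts in controls against 668, 862 and 907 with GCNT1 OE, without overlap (log2 fold change 0.82, edgeR, Benjamini-Hochberg adjusted p = 2.89e-07). IGF2BP2, the most abundant of the 3 per kilobase, had a log2 fold change of only 0.18 (edgeR, Benjamini-Hochberg adjusted p = 0.00663). That of IGF2BP2 was 0.15 and just missed the adjusted p without GCNT1 OE replicate 3, and the median of its 50 nearest genes was 0.21.

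Of 10 genes for proteases that cleave binding proteins and for inhibitors of those proteases, 6 were in the table, and STC1 and PLAU were called. That was 33.3% called, against 19.3% of all genes, a difference of few genes that was not tested. STC1 encodes stanniocalcin 1, an inhibitor of the IGFBP4-cleaving protease PAPPA. It had 559, 544 and 534 counts in controls against 9, 18 and 10 with GCNT1 OE. STC1 was thus nearly lost from all 3 GCNT1 OE libraries, with 44.4 ± 0.740 CPM in controls and 0.932 ± 0.329 CPM with GCNT1 OE (SD, n = 3 each). The log2 fold change was -5.55 ± 0.14 (SE, edgeR quasi-likelihood test, Benjamini-Hochberg adjusted p = 3.53e-12), and the median of its 50 nearest genes was 0.00. PAPPA and PAPPA2 themselves were not in the table, and neither were ADAM12 and MMP7. STC2, which encodes the related inhibitor stanniocalcin 2, had 164.0 ± 1.58 and 152.9 ± 8.16 CPM (SD, n = 3 each) in the respective groups (log2 fold change -0.10, edgeR, Benjamini-Hochberg adjusted p = 0.113).

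PLAU encodes urokinase, a secreted protease that starts plasmin formation. It had 5231, 5369 and 5241 counts in controls against 11682, 11792 and 12632 with GCNT1 OE. Every GCNT1 OE library was far above the controls, with 430.1 ± 13.9 CPM in controls and 921.1 ± 78.7 CPM with GCNT1 OE (SD, n = 3 each), 2.14-fold higher (log2 fold change 1.10, edgeR, Benjamini-Hochberg adjusted p = 4.79e-09). The proteases HTRA1, ADAM9 and CTSD had log2 fold changes of -0.11, 0.06 and -0.05 and did not pass the adjusted p.

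Mannose 6-phosphate sorting, the other task of IGF2R, had 8 of 8 genes in the table and 0 called at the edgeR thresholds, while 4 were higher and 2 lower by adjusted p alone. With limma-voom and DESeq2 the count was 0 as well, and 6 genes had an unadjusted p under 0.05 with edgeR. M6PR, the second mannose 6-phosphate receptor, had 62.3 ± 1.28 CPM in controls and 81.7 ± 1.57 CPM with GCNT1 OE (SD, n = 3 each; log2 fold change 0.39, edgeR, Benjamini-Hochberg adjusted p = 3.74e-05). M6PR was therefore higher in the libraries in which IGF2R was lower. SORT1, which encodes the sorting receptor sortilin, had a log2 fold change of -0.35 (edgeR, Benjamini-Hochberg adjusted p = 4.09e-04). GNPTAB and NAGPA, which make and uncover the mannose 6-phosphate tag, had 0.21 and 0.26, while GNPTG (-0.15) did not pass. The GGA adaptors of this route had log2 fold changes of -0.20 (GGA1), 0.11 (GGA2, not past the adjusted p) and 0.15 (GGA3). The calls of GGA1, GGA3 and NAGPA by adjusted p were lost in some alternatives.

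Of 21 further receptor adaptors and inhibitors 17 were in the table, with GRB7 upregulated, SHC1 downregulated, and 4 higher and 5 lower by adjusted p alone. These shares were 11.8% called and 52.9% past the adjusted p, against 19.3% and 57.6% of all genes. SHC1 encodes the adaptor that passes receptor signals to RAS, and had 3248, 3277 and 3125 counts in controls against 1948, 2308 and 2502 with GCNT1 OE. All GCNT1 OE libraries were below the controls, and the log2 fold change was -0.61 ± 0.05 (SE, edgeR quasi-likelihood test, Benjamini-Hochberg adjusted p = 1.44e-07). The call of SHC1 was lost with library size alone (-0.55) and relative to the median of its 50 nearest genes (-0.56), where it was short of 0.58. GRB7, an adaptor of receptor tyrosine kinases, was rare, with 26, 28 and 31 counts in controls and 57, 70 and 85 with GCNT1 OE (log2 fold change 1.22, edgeR, Benjamini-Hochberg adjusted p = 5.16e-05). PYGO2 overlaps SHC1 on the same strand, which makes its counts uncertain.

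The PI3K, AKT and mTOR list had 29 of 30 genes in the table. INPP4B was upregulated, PIK3CD and PIK3R3 were downregulated, and 10 genes were higher and 8 lower by adjusted p alone. Of the 29 genes 10.3% were called and 62.1% passed the adjusted p, against 19.3% and 57.6% of all genes. PIK3R3, a regulatory subunit of PI3K, had 1376, 1233 and 1109 counts in controls against 592, 816 and 812 with GCNT1 OE (log2 fold change -0.84, edgeR, Benjamini-Hochberg adjusted p = 5.52e-07). PIK3CD, the catalytic subunit p110 delta, had 12.3 ± 0.696 CPM in controls and 6.91 ± 0.877 CPM with GCNT1 OE (SD, n = 3 each; log2 fold change -0.83). INPP4B, a lipid phosphatase that opposes PI3K signals, was rare and higher with GCNT1 OE, at 30, 38 and 27 counts against 58, 78 and 87 (log2 fold change 1.13, edgeR, Benjamini-Hochberg adjusted p = 8.83e-05). The groups did not overlap in any of the 3 genes. Antisense genes overlap all 3, and the readthrough gene P3R3URF-PIK3R3 shares the strand of PIK3R3.

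FOXO factors are transcription factors that AKT keeps out of the nucleus, and IRS2 is among their known targets. FOXO3 had 680, 669 and 598 counts in controls against 340, 452 and 440 with GCNT1 OE. It was lower in every GCNT1 OE library (log2 fold change -0.76, SE 0.07, edgeR quasi-likelihood test, Benjamini-Hochberg adjusted p = 6.94e-07). Relative to the median of its 50 nearest genes FOXO3 was at -0.54, short of the fold change threshold. FOXO1 was higher, from 7.06 ± 0.631 to 10.5 ± 0.595 CPM (SD, n = 3 each), with a log2 fold change of 0.57 that was just short of the threshold (edgeR, Benjamini-Hochberg adjusted p = 7.74e-04). FOXO1 passed it with library size alone (0.63), with length offsets (0.581), and without control replicate 1 (0.63), control replicate 3 (0.60) or GCNT1 OE replicate 3 (0.62). It was lower without control replicate 2 (0.50) and relative to the median of its 50 nearest genes (0.37), so its side of the threshold depended on the processing. FOXO4 (log2 fold change -0.01) did not pass, and FOXO6 was not in the table.

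**Figure D4:**
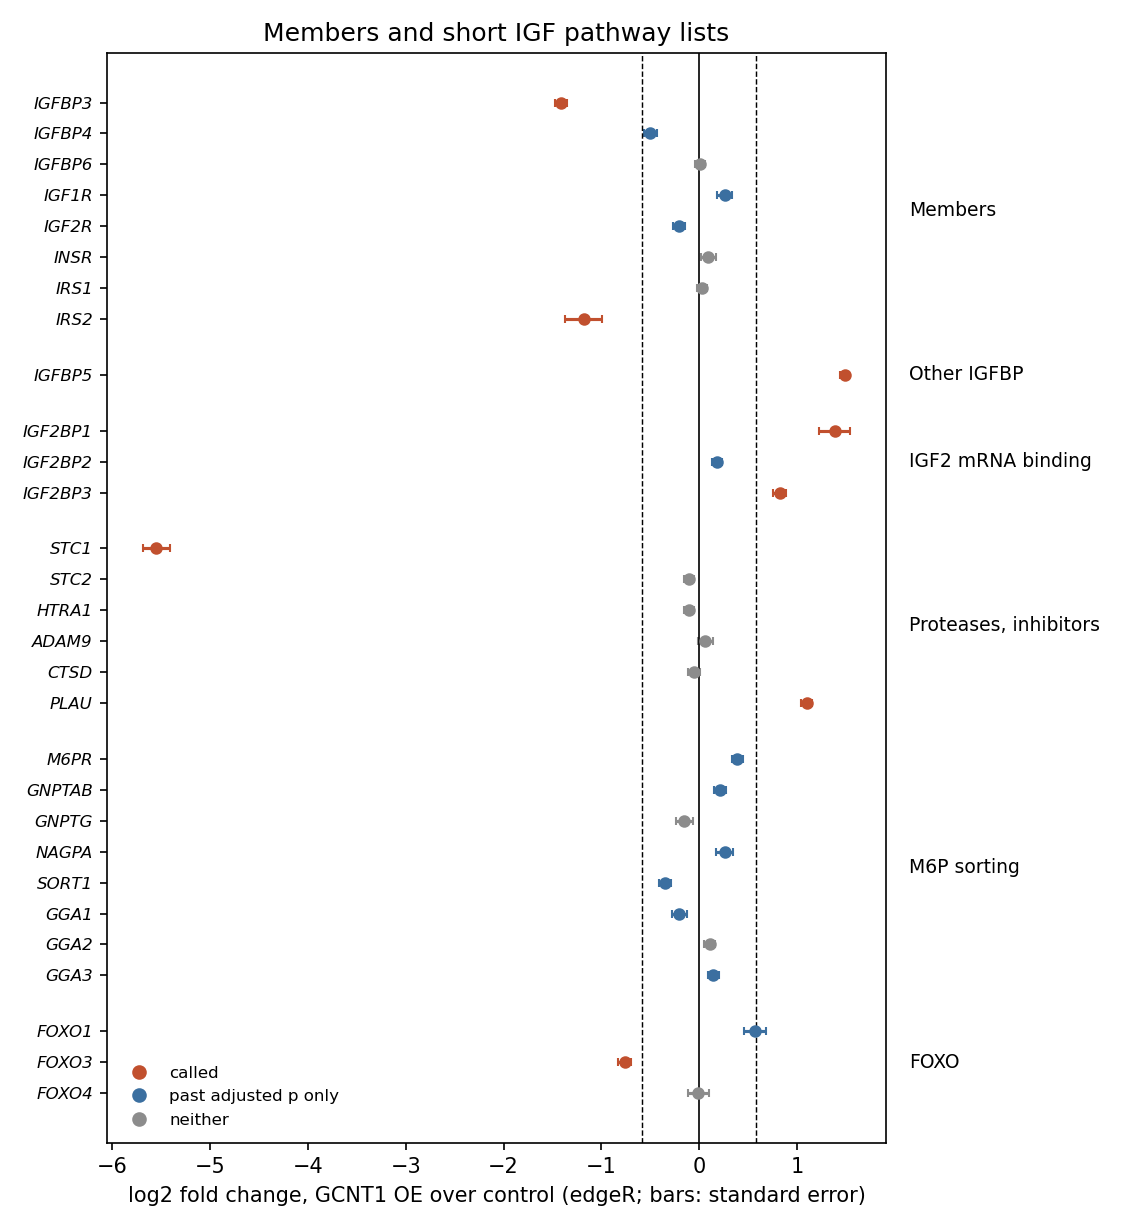
Log2 fold change of GCNT1 OE over control with its standard error (horizontal axis) for the 8 genes and for the genes of the 5 lists of at most 10 genes that were in the table, with dashed lines at -0.58 and 0.58. IGFBP3 (-1.41), IRS2 (-1.18), STC1 (-5.55) and FOXO3 (-0.76) were downregulated, and IGFBP5 (1.49), IGF2BP1 (1.39), PLAU (1.10) and IGF2BP3 (0.82) were upregulated.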

How the data were processed

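RNA of 3 control and 3 GCNT1 OE PC3 lines was sequenced as stranded mRNA libraries. The authors trimmed, mapped to hg38 and counted reads with featureCounts, and deposited raw counts per gene, without normalization. The annotation, strand setting and filter are not given in the sources used here. Groups came from the labels. Entrez identifiers were matched to symbols for 12661 of 12703 genes. Differential expression was tested with edgeR 4.0.16 under R 4.3.3 (filterByExpr, which kept all genes, TMM, quasi-likelihood F test, Benjamini-Hochberg over 12703 genes, no block). Thresholds were those of the study. Exon lengths and overlaps were taken from GENCODE 44, positions and promoters from RefSeq, and permutation tests were run in scipy 1.17.1.

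Members and lists were chosen with earlier results of these data known. Named genes were GCNT1, the 10 members, the cell type markers, up to 3 called rises and 3 called falls of each list, every gene of lists of at most 10 genes, and the 3 genes nearest to each called member (prior count 2). Some genes that these rules take are not reported here. Neighbouring genes and IGFBP5's promoter were named after their values were seen. The fits were also run on simulated data, the outcome of which is not given here and is not used for any result. At these depths 3 counts, a floor for counting error only, were 0.213 to 0.259 CPM. Libraries of a group differed by more than sampling noise (chi-square per degree of freedom 1.65 to 5.61). Alternatives were limma-voom (limma 3.58.1), DESeq2 1.42.0, library size alone, RLE factors, no filter, at least 10 counts in every library, a replicate block, length offsets, each library left out, and the local median. Shares were also computed with the longest transcript and without length.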

Additional observations from a re-analysis of the deposited data

How the results depend on the processing

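IGFBP3 and IRS2 were called under all 15 alternatives, and IGFBP5 kept its direction and side of the threshold in each. The number of members past the adjusted p was 4 to 6 with a library left out. Relative to the local median, with the adjusted p kept, the log2 fold change turned to -0.067 for IGF1R, 0.23 for IGF2R, -0.026 for IGF2BP2 and 0.044 for GGA1, by construction of the difference. The sign also turned for IGFBP6 (to -0.25) and STC2 (to 0.18), which did not pass the adjusted p. The change in share, in percentage points, was -16.2 for IGFBP3, -4.07 for IGFBP4, 12.8 for IGFBP5 and 7.47 for IGFBP6 with the longest transcript as length, and -21.3 for IGFBP3, 28.4 for IGFBP5 and 1.26 for IGFBP6 without division by length. The main values were -11.8, -7.24, 13.5 and 5.52. With the replicate block, 2423 genes were called in all and the log2 fold change was -1.41 for IGFBP3 and -1.19 for IRS2, and no member's call changed. Deviations of same-numbered libraries correlated at -0.27, 0.00 and -0.11 across genes, so the numbers were not taken to pair them. GGA1 lost the adjusted p in 8 alternatives, GGA3 in 7 and NAGPA in 3. IGF2BP2 lost it in 1, and HTRA1, ADAM9, CTSD and GGA2 gained it in 1 each. The number of list genes called was 10 to 15 against 11. STC1 and GCNT1 could not be fitted with at least 10 counts in every library. The fold change threshold was missed by SHC1 in 2 alternatives and by FOXO3 in 1, and reached by FOXO1 in 5. Low counts limit GCNT1, IRS2, GRB7 and INPP4B. The median over all genes moved to 0.06 with library size alone.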
